A study of Homo sapiens with 4 samples.

Results

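The RNA interference machinery was described as 10 genes, chosen by symbol from the 58174 genes of the deposited table, and all 10 were found in it. They are the Microprocessor genes DROSHA (ENSG00000113360) and DGCR8 (ENSG00000128191), the export receptor gene XPO5 (ENSG00000124571), and the Dicer complex genes DICER1 (ENSG00000100697) and TARBP2 (ENSG00000139546). The Argonaute genes are AGO1 (ENSG00000092847), AGO2 (ENSG00000123908), AGO3 (ENSG00000126070) and AGO4 (ENSG00000134698), and the last is TNRC6A (ENSG00000090905). RNA was sequenced from 2 established human lung cancer cell lines 48 h after transfection, with 1 library in each of 4 groups. These were HCC827 with an siRNA against CDH3 (siCDH3), HCC827 with a control siRNA (siCTR), H1299 with siCDH3 and H1299 with siCTR. HCC827 grew out of an adenocarcinoma of the lung and depends on mutant EGFR. H1299 derives from a lymph node metastasis of a lung carcinoma and lacks p53. CDH3 encodes P-cadherin, a junction protein, and the study asked what its transient knockdown does to expression in each line. All 4 groups received an siRNA, and no untransfected group was analysed here. With 1 library per group, differences within a line have no replicate check.

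In the RNA interference pathway, the nuclease DROSHA and its partner DGCR8 cut hairpins out of primary microRNA transcripts in the nucleus. Exportin-5, the product of XPO5, carries the hairpins to the cytoplasm, where DICER1, with the double-stranded RNA-binding protein TARBP2, trims them to short duplexes. An Argonaute protein keeps 1 strand as a guide to complementary mRNAs, and GW182 proteins such as TNRC6A bind Argonaute and recruit the enzymes that shorten poly(A) tails. A transfected siRNA enters at the Argonaute step, and AGO2 is the Argonaute that slices a fully matched target.

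The knockdown was checked first. CDH3 had 78.8 TPM in siCDH3 HCC827 against 173 in siCTR HCC827, which is 45.6% of the control level. In H1299 it had 0.169 TPM with siCDH3 and 1.21 with siCTR, 14.0% of a control level that was already low. TPM, a transcript's share of all transcripts in its library, is scaled by transcript length, so levels of genes can be compared within a library, but it keeps no read depth, and no counting interval can be given. Of 6 epithelial markers, 6 reached 5 TPM in both HCC827 libraries and 3 in both H1299 libraries. The 3 at that level in H1299 were KRT7, KRT8 and KRT18, and the 3 below it were EPCAM, CDH1 (E-cadherin) and KRT19. Summed TPM of the 6 epithelial markers was 4517 and 4769 in HCC827 with siCDH3 and siCTR, and 702 and 668 in H1299. Of 4 mesenchymal markers (VIM, ZEB1, CDH2 and FN1), 4 reached 5 TPM in both H1299 libraries and 2 in both HCC827 libraries (VIM and FN1). Their summed TPM was 127 and 107 in HCC827 with siCDH3 and siCTR, and 5191 and 5339 in H1299. Of 14 markers of blood, fibroblast and endothelial cells, 2 reached 5 TPM in HCC827 (CD68 and COL1A1) and 1 in H1299 (CD68). The 13 mitochondrially encoded protein-coding genes took 26.4% and 27.6% of TPM in HCC827 with siCDH3 and siCTR, and 12.8% and 10.1% in H1299, so a line comparison at fixed total TPM moves with that share.

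The 10 genes were expressed at low to moderate levels in every library. Their TPM lay between 2.27 and 37.1 in siCDH3 HCC827, between 2.61 and 36.4 in siCTR HCC827, between 4.26 and 55.7 in siCDH3 H1299 and between 5.24 and 59.8 in siCTR H1299. XPO5 was the highest and AGO3 the lowest of the 10 in each library. Summed TPM over the 10 genes was 149.7 and 145.6 in HCC827 with siCDH3 and siCTR, and 241 and 276 in H1299. In bulk RNA, fewer cells with a transcript and less transcript per cell cannot be told apart.

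**Figure D1:**
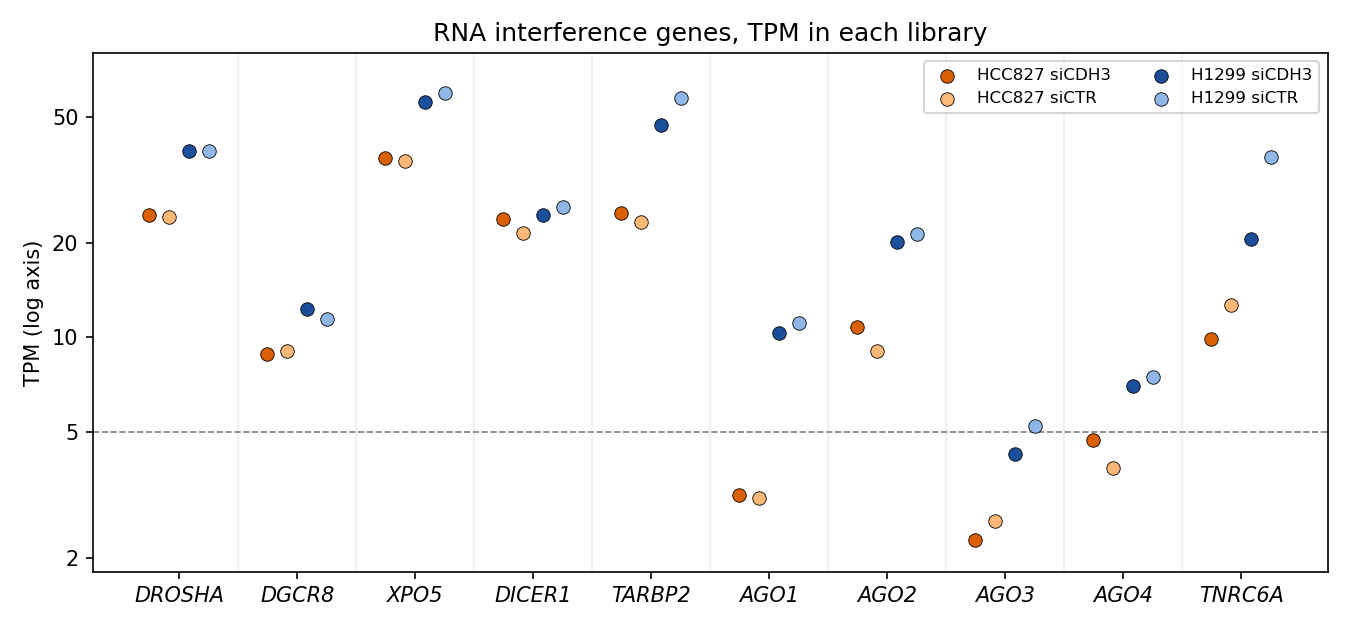
TPM (log axis) of each of the 10 genes in each of the 4 libraries, 1 point per library, with the line at 5 TPM that was used as a filter. For every gene both HCC827 points lie below both H1299 points, and for TNRC6A the H1299 siCTR point at 37.4 TPM stands well above H1299 siCDH3 at 20.6 TPM.

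The Microprocessor genes were nearly the same with either siRNA. DROSHA, the nuclease, had 24.4 TPM in siCDH3 HCC827 and 24.1 in siCTR HCC827, and 39.1 TPM in both H1299 libraries. DGCR8, which binds the hairpin and anchors DROSHA to it, had 8.87 and 9.07 TPM in siCDH3 and siCTR HCC827, and 12.3 and 11.5 TPM in siCDH3 and siCTR H1299. The log2 ratio of TPM + 1, siCDH3 over siCTR, was 0.015 in HCC827 and -0.0019 in H1299 for DROSHA, and -0.028 and 0.098 for DGCR8. DROSHA TPM was 2.75 times DGCR8 TPM in siCDH3 HCC827 and 2.66 times in siCTR HCC827, and 3.17 and 3.42 times in siCDH3 and siCTR H1299.

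DGCR8 transcripts carry microRNA hairpins themselves, and the Microprocessor is known to cut DGCR8 mRNA at such hairpins, which lowers its own partner. The mature sequences encoded there are shown because their genes share exons with DGCR8 and so bear on how its reads were assigned. They are from RefSeq (GRCh38.p14, chromosome 22, plus strand), 5′ to 3′, with the seed (bases 2 to 8) in capitals.
hsa-miR-3618: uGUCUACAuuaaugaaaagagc
hsa-miR-1306-5p: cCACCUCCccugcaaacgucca
hsa-miR-1306-3p: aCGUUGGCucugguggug
The 3 seeds differ from each other. The hairpin genes were listed between 0.000198 and 0.111 TPM (MIR3618) and between 0.192 and 0.268 TPM (MIR1306) in the 4 libraries, far below DGCR8. In all, 11.01% of the 50-base windows of DGCR8 coding transcripts also occur in another gene's transcripts, mostly those of an antisense gene. That gene, AC006547.2, had at most 0.0708 TPM in any library.

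XPO5 also stayed close to its control level. It had 37.1 TPM in siCDH3 HCC827 and 36.4 in siCTR HCC827, and 55.7 TPM in siCDH3 H1299 against 59.8 in siCTR H1299. The log2 ratios were 0.026 in HCC827 and -0.10 in H1299, where the median over all genes was -0.11. XPO5 shares 4.08% of its exonic bases with POLR1C on the opposite strand, at 21.1 to 29.7 TPM over the 4 libraries. Strand use in counting is not given in the sources used here, so reads of that stretch cannot be told apart.

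In the Dicer complex, the catalytic gene DICER1 had 23.7 TPM in siCDH3 HCC827 and 21.5 in siCTR HCC827, and 24.5 TPM in siCDH3 H1299 and 26.0 in siCTR H1299. The log2 ratio was 0.14 in HCC827 and -0.083 in H1299. DICER1 was the member with the most even level over the 4 libraries.

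TARBP2, the Dicer partner that also restrains the kinase PKR, had 24.7 and 23.2 TPM in siCDH3 and siCTR HCC827, and 47.1 and 57.5 TPM in siCDH3 and siCTR H1299. Its log2 ratio was 0.089 in HCC827 and -0.28 in H1299. The balance of the pair therefore differed by line more than by siRNA: DICER1 TPM was 0.958 and 0.925 times TARBP2 TPM in siCDH3 and siCTR HCC827, and 0.520 and 0.452 times in siCDH3 and siCTR H1299.

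Among the Argonautes, AGO2, the slicer, was the most abundant in each library. It had 10.8 TPM in siCDH3 HCC827 and 9.04 in siCTR HCC827, and 20.05 TPM in siCDH3 H1299 and 21.3 in siCTR H1299. Its log2 ratio was 0.23 in HCC827 and -0.083 in H1299.

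AGO1, AGO3 and AGO4 lie side by side on chromosome 1 and, in cells, guide repression mainly without slicing. AGO1 had 3.17 and 3.10 TPM in siCDH3 and siCTR HCC827, and 10.3 and 11.1 TPM in siCDH3 and siCTR H1299. AGO3 had 2.27 and 2.61 TPM in siCDH3 and siCTR HCC827, and 4.26 and 5.24 TPM in siCDH3 and siCTR H1299. AGO4 had 4.71 and 3.86 TPM in siCDH3 and siCTR HCC827, and 7.01 and 7.47 TPM in siCDH3 and siCTR H1299. AGO1, AGO3 and AGO4 stayed below 5 TPM in both HCC827 libraries, where their log2 ratios of 0.026, -0.14 and 0.23 rest on low values of unknown precision. In H1299 the log2 ratios were -0.094, -0.25 and -0.080. No 50-base window is shared between the Argonaute transcripts, so reads of that length would not be split between the paralogs.

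**Figure D2:**
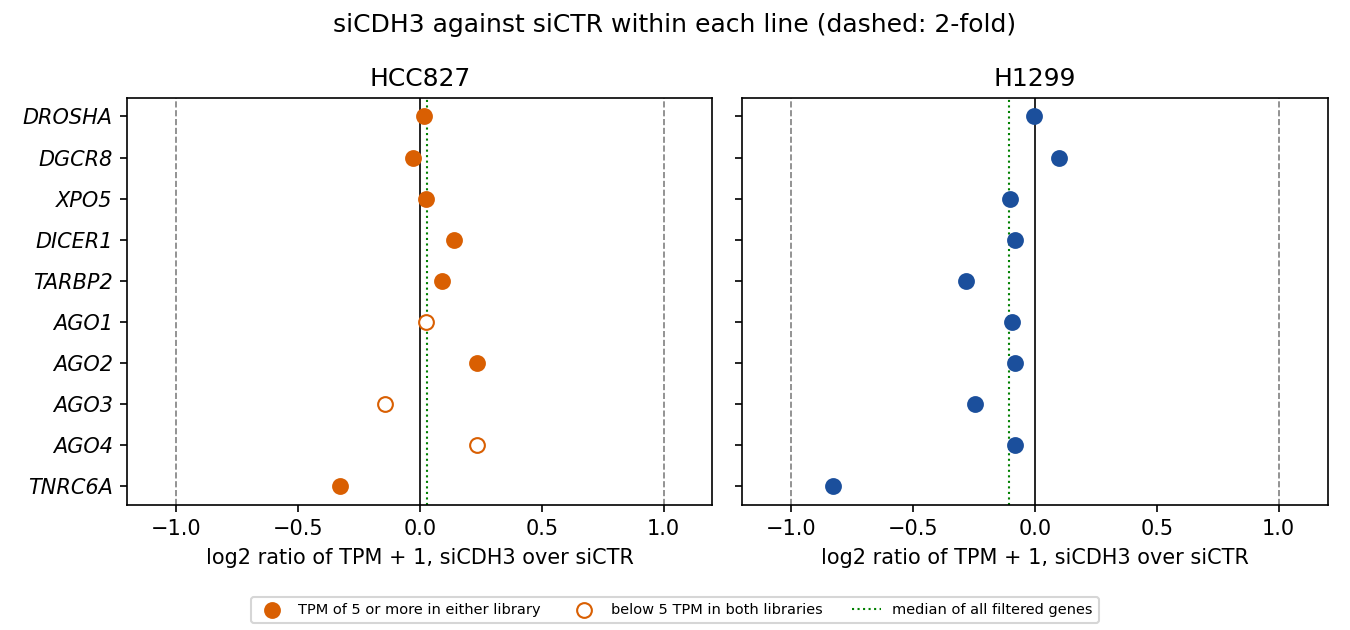
Log2 ratio of TPM + 1, siCDH3 over siCTR, for each gene in HCC827 (left) and H1299 (right). Hollow points are below 5 TPM in both libraries, the dotted line is the median of all filtered genes (0.030 in HCC827, -0.11 in H1299), the dashed lines mark 2-fold, and TNRC6A is the lowest point in both panels.

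The make-up of the Argonaute pool was similar with either siRNA. AGO2 took 51.6% of summed Argonaute TPM in siCDH3 HCC827 and 48.6% in siCTR HCC827, and 48.1% and 47.2% in siCDH3 and siCTR H1299. AGO1 took 15.1% and 16.6% in siCDH3 and siCTR HCC827, and 24.8% and 24.6% in siCDH3 and siCTR H1299. AGO4 took 22.5% and 20.7% in siCDH3 and siCTR HCC827, and 16.8% and 16.6% in siCDH3 and siCTR H1299. So AGO4 ranked above AGO1 in HCC827, and AGO1 above AGO4 in H1299. AGO3 held between 10.2% and 14.0% in the 4 libraries. The summed level was 21.0 and 18.6 TPM in siCDH3 and siCTR HCC827, and 41.7 and 45.1 TPM in siCDH3 and siCTR H1299.

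TNRC6A, the GW182 protein gene that links Argonaute to deadenylation, was the member with the lowest siCDH3 over siCTR ratio in each line. It had 9.92 TPM in siCDH3 HCC827 and 12.7 in siCTR HCC827, and 20.6 TPM in siCDH3 H1299 against 37.4 in siCTR H1299. The siCDH3 level was 78.0% of siCTR in HCC827 and 55.1% in H1299. On the TPM + 1 scale the log2 ratios were -0.33 and -0.83, and 6.88% of filtered genes in HCC827 and 2.68% in H1299 had a lower ratio.

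In H1299 the log2 ratios of all genes went with transcript length and GC content, which took 11.1% of their variance (0.187% in HCC827). With that trend removed TNRC6A had -0.75 in H1299 and -0.35 in HCC827. No exonic base of TNRC6A is shared with another gene in GENCODE 29, and none of its 50-base windows occurs in another gene's transcripts.

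Of its paralogs, which share its role, TNRC6B was higher with siCDH3 in each line and TNRC6C slightly lower. TNRC6B had 5.96 TPM in siCDH3 HCC827 against 3.86 in siCTR HCC827, and 5.29 TPM in siCDH3 H1299 against 4.34 in siCTR H1299, with log2 ratios of 0.52 and 0.24. TNRC6C had 1.53 and 1.69 TPM in siCDH3 and siCTR HCC827, and 3.48 and 3.99 TPM in siCDH3 and siCTR H1299. TNRC6A thus made up 57.0% of summed TNRC6 TPM in siCDH3 HCC827 and 69.6% in siCTR HCC827, and 70.1% and 81.8% in siCDH3 and siCTR H1299. AGO2 TPM was 1.09 times TNRC6A TPM in siCDH3 HCC827 and 0.711 times in siCTR HCC827, and 0.973 and 0.570 times in siCDH3 and siCTR H1299.

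**Figure D3:**
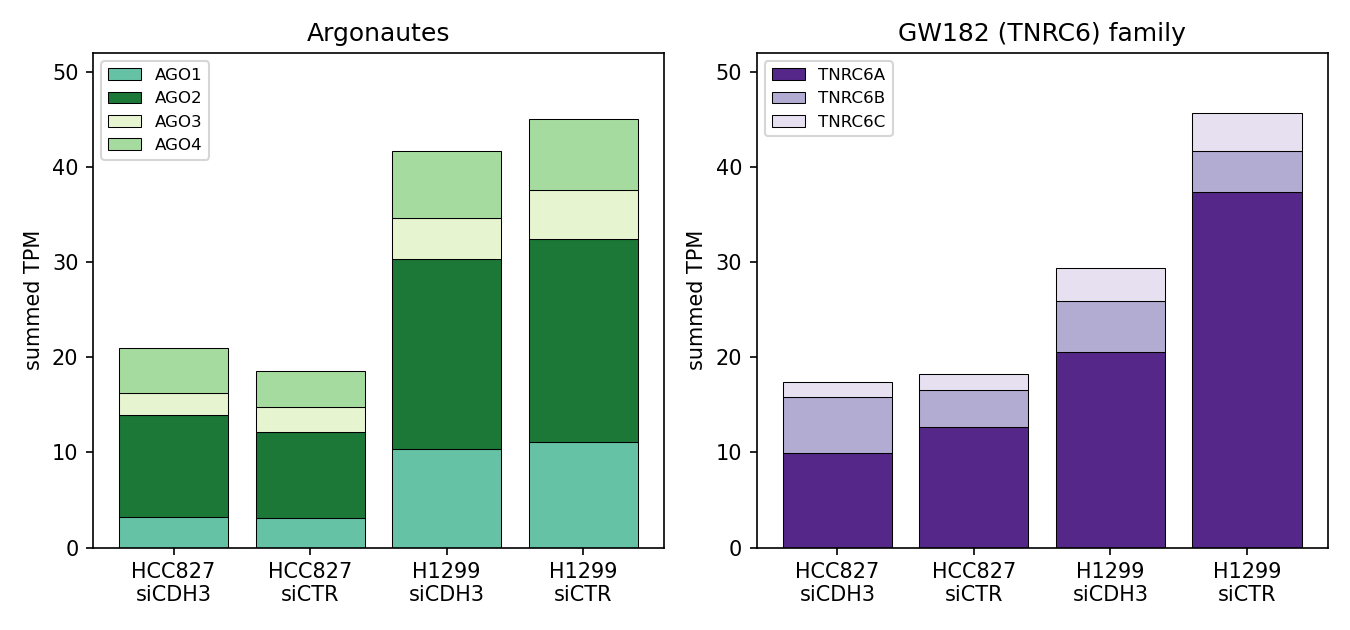
Summed TPM of the 4 Argonaute genes (left) and the 3 TNRC6 genes (right) in each library, stacked by gene. The Argonaute stack is 21.0 and 18.6 TPM in HCC827 against 41.7 and 45.1 TPM in H1299, and in each line the TNRC6A part is smaller with siCDH3.

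Of the 10 genes, 0 were higher and 0 lower by 2-fold or more with siCDH3 in H1299, where 0.878% and 1.58% of 11622 filtered genes were (a gene passed the filter with at least 5 TPM in 1 of the 2 libraries). The same counts were 0 and 0 in HCC827, where 7 of the 10 genes passed the filter and 1.01% and 0.833% of 11043 filtered genes were past 2-fold. The lean of all genes in H1299, 102 higher and 184 lower, depended on the scale: the counts were 140 and 134 with the median set to 0, and 135 and 123 with quantile normalization. At 1.5-fold in H1299, 0 of the 10 genes were higher (3.21% of filtered genes were) and TNRC6A alone was lower (7.11% were). At 1.5-fold in HCC827, 0 were higher and 0 lower, beside 3.35% and 2.54% of filtered genes. In H1299, 9 of the 10 genes had a log2 ratio below 0, as 64.8% of filtered genes did, and 3 lay below the median of all genes. In HCC827, 2 of the 7 that passed the filter were below 0, beside 42.9% of filtered genes. Over all 10 genes the median log2 ratio was -0.089 in H1299, beside -0.11 over all filtered genes, and 0.026 in HCC827, beside 0.030. In size without sign, the median log2 ratio of the 10 genes was 0.096 in H1299 and 0.11 in HCC827, beside 0.21 and 0.13 over all filtered genes.

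The lines were then taken as the units of replication, and limma was fitted to log2(TPM + 1) of 12941 genes with the line as a block. The siRNA effect was not past an adjusted p of 0.05 for any of the 10 genes by limma. Over all genes limma called 0 higher (0% of those tested) and 1 lower (0.00773%), and 581 had an unadjusted p under 0.05. The gene called was TNFRSF6B, which encodes a decoy receptor, at a log2 fold change of -6.55, named here after its value was seen. TNRC6A had a log2 fold change of -0.58 ± 0.19 (SE, 2 lines), lower in 2 of 2 lines, with an unadjusted limma p of 0.030 and an adjusted p of 0.95. The other 9 genes had log2 fold changes between -0.19 (AGO3) and 0.076 (AGO4). This fit has 1 residual degree of freedom per gene, so a p that misses the threshold does not show that levels were equal.

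The larger contrast was between the lines. All 10 genes had both HCC827 libraries below both H1299 libraries, an order that 52.9% of the 12941 genes showed. AGO1, AGO3 and AGO4 passed the filter only through H1299, where they are high. Of the 7 genes at 5 TPM or more in all 4 libraries, limma called 5 lower in HCC827 (AGO2, DROSHA, TARBP2, TNRC6A and XPO5), against 37.6% of the 9096 genes at that level. All 7 had both HCC827 libraries below both H1299 libraries, as did 52.6% of those genes. In the siCTR libraries, AGO1, AGO2, TARBP2 and TNRC6A were at least 2-fold lower in HCC827 (27.8% of 12601 filtered genes were). In the siCDH3 libraries AGO1 alone was (24.2% of 12542). By 1.5-fold, 8 of the 10 were lower in the siCTR libraries (42.4% of filtered genes), AGO1, AGO3 and AGO4 among them. In the siCDH3 libraries 5 of the 9 that passed the filter were (37.2%), AGO1 among them. At that size 0 were higher in either pair (19.4% and 22.8%). The log2 ratio was below 0 for 10 of 10 genes with siCTR, beside 64.3% of filtered genes, and for 9 of the 9 that passed with siCDH3, beside 58.6%. Counts that include AGO1, AGO3 or AGO4 are description only, because their entry through H1299 favoured a lower level in HCC827. The 2 libraries of a line differ in siRNA and are not independent cultures shown to be replicates. The fit removes the siRNA difference, so these p-values rest on how the line difference varied between the 2 siRNAs. That variance was moderated over all genes, and it is not a spread between replicate cultures.

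Among the 7 genes at 5 TPM or more in all 4 libraries, TNRC6A had the lowest limma log2 fold change, HCC827 over H1299, at -1.23 ± 0.19 (SE, 2 libraries per line; adjusted p = 0.00462). TARBP2 followed at -1.09 ± 0.17 (limma adjusted p = 0.00515) and AGO2 at -0.99 ± 0.17 (0.00622). DROSHA had -0.67 (adjusted p = 0.0158) and XPO5 -0.64 (adjusted p = 0.0192), each with an SE of 0.15 in limma. DGCR8 (-0.37, adjusted p = 0.0906) and DICER1 (-0.16, adjusted p = 0.428) did not pass in limma. Leaving out 1 library leaves 1 library in its line, and those fits were run without the siRNA term. Their spread then comes only from the 2 libraries of the other line. Calls of such fits cannot show which library a difference depends on. Their counts are listed only among the alternatives, and no conclusion is drawn from them.

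AGO1, AGO3 and AGO4 are set apart, because their entry through H1299 favoured a difference. AGO1 had 3.17 and 3.10 TPM in HCC827 against 10.3 and 11.1 TPM in H1299, a log2 fold change of -1.50 ± 0.15 (SE). AGO3 had -0.74 and AGO4 -0.65. With a filter at 1 TPM, which these genes exceed in all 4 libraries, the limma adjusted p was 0.00187 for AGO1, 0.0162 for AGO3 and 0.0309 for AGO4. At that filter 37.4% of 18049 genes were called lower in HCC827.

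Part of this contrast moved with the scale. The median log2 fold change of all 12941 genes between the lines was -0.31. With the median of all genes set to 0, limma called 3 of the 7 genes lower in HCC827, TNRC6A (-0.92), TARBP2 (-0.78) and AGO2 (-0.68), beside 25.5% of genes at 5 TPM in all libraries, and DICER1 was at 0.16. The same 3 were called with TPM recomputed over nuclear protein-coding genes, at -0.87, -0.70 and -0.63, beside 21.5% of such genes. With quantile normalization they were called again, at -1.02, -0.83 and -0.79, beside 28.1%. DROSHA and XPO5 were called in none of these 3 scalings. AGO1 had -1.19, -1.24 and -1.31 in the same order of scalings. AGO4 had -0.33, -0.32 and -0.46, with limma adjusted p of 0.10, 0.13 and 0.045. AGO3 had -0.43 with the median set to 0 (limma adjusted p = 0.0501) and -0.47 with nuclear protein-coding TPM (0.0446).

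**Figure D4:**
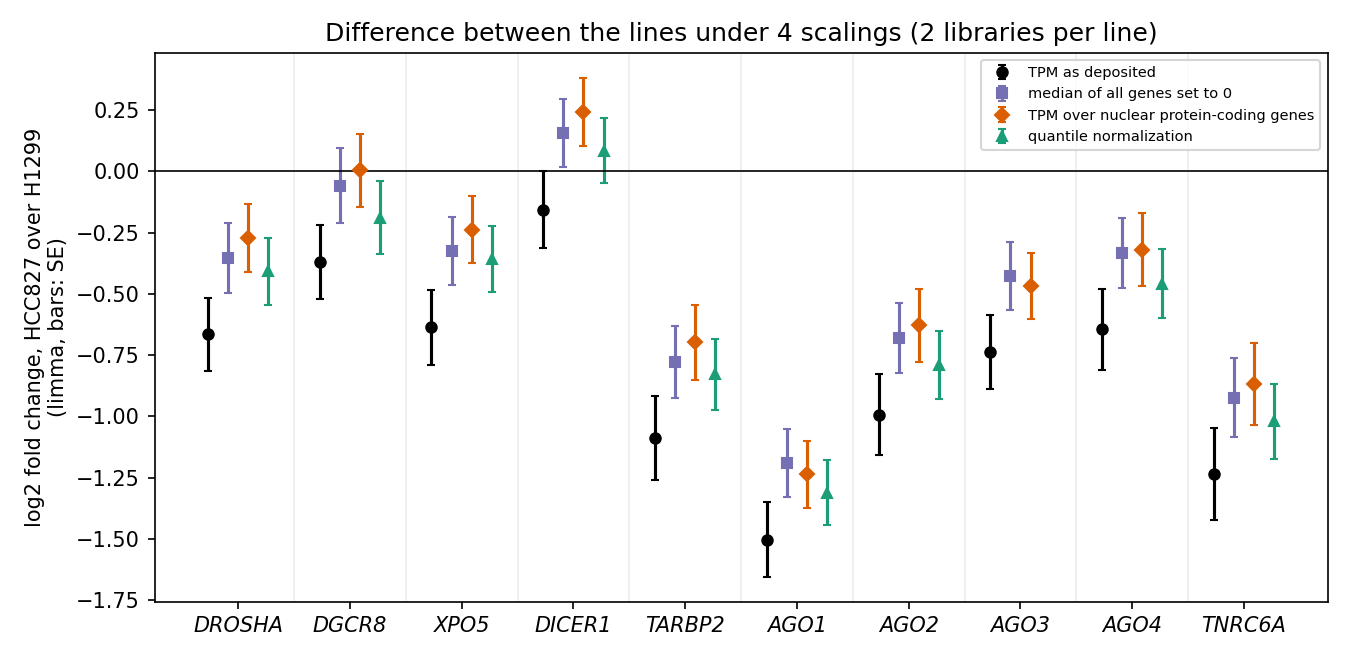
limma log2 fold change, HCC827 over H1299, for each gene (bars show the SE, 2 libraries per line) under 4 scalings of the same table. TNRC6A lies between -1.23 and -0.87 and AGO1 between -1.50 and -1.19, whereas DICER1 changes sign. AGO3 fell below the filter with quantile normalization and has 3 points.

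Promoter sequence is shown for AGO1 and TNRC6A, the members with the largest line difference and, for TNRC6A, the lowest siRNA ratios. These are the 250 bases before the RefSeq start (GRCh38.p14), 5′ to 3′, at chr1:35882959-35883208 for AGO1 and chr16:24729401-24729650 for TNRC6A, both on the plus strand. Capitals mark every match, on either strand, to any of 5 motifs. The GC box, bound by SP1 and its relatives, was searched as GGGCGG. The CCAAT box, which NF-Y recognises, was searched by the letters of its name. For the core that ETS-family factors share, the letters were CCGGAAG. The E-box of MYC and related factors was taken in its palindromic form, CACGTG. The palindrome-like core of NRF1 was the last.
AGO1: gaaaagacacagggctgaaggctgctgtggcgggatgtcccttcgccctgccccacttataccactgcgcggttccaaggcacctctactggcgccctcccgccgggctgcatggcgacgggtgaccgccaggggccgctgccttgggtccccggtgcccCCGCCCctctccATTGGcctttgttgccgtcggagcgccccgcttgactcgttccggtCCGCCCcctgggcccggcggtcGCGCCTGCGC
TNRC6A: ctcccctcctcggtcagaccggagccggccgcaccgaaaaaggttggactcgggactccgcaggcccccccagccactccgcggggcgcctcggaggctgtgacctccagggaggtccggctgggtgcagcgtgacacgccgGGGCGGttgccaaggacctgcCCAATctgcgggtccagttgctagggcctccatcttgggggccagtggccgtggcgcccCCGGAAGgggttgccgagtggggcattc
Both windows are 71.6% G or C. AGO1 holds 2 GC boxes, 1 CCAAT box and 1 NRF1 core, and TNRC6A holds 1 GC box, 1 CCAAT box and 1 ETS core, with no overlap between matches. Of 35116 RefSeq promoter windows of the same length, 42.6% hold a GC box, 32.0% a CCAAT box, 8.52% an ETS core, 6.34% an E-box and 5.07% an NRF1 core. Of the members, 9 of 10 matched an entry, all but AGO2, with 15 windows in all. A GC box stood in 10 of these 15 windows, a CCAAT box in 8, an ETS core in 2, an NRF1 core in 2 and an E-box in 0. Windows of the same gene are not independent. By gene, 8 of the 9 held a GC box, 6 a CCAAT box, 2 an ETS core, 2 an NRF1 core and 0 an E-box. The shares over all promoters are per window, so they are no background for these counts by gene. A match describes the letters only.

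By the distance of centred log2(TPM + 1) over the 4 libraries, the 5 protein-coding genes with a pattern most like AGO2 among 11585 were COQ6 (0.034), SFMBT1 (0.041), DAPK3 (0.046), HMGXB3 (0.054) and MLF2 (0.057). COQ6, for example, had 14.6 and 12.2 TPM in siCDH3 and siCTR HCC827, and 27.6 and 28.96 TPM in siCDH3 and siCTR H1299. The nearest member was TARBP2 (0.20), with 291 genes nearer. The 4 libraries come from 2 lines, and this likeness is given without a test.

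The wider pathway was read from a list of 63 further genes in 10 roles. With siCDH3 in HCC827, 54 of them passed the filter. Of these, 0 were higher and 0 lower by 2-fold or more (1.01% and 0.833% of filtered genes were). Their median log2 ratio was 0.0036, beside 0.030 over all genes. In H1299, 55 passed, and the median was -0.23, beside -0.11. Of these, 0 were higher and 1 was lower by at least 2-fold (0.878% and 1.58% of filtered genes were). The 1 gene was TSN. limma called 0 of the 55 tested in either direction for the siRNA effect, with an unadjusted p under 0.05 for 2 of them (3.64%), CNOT2 and TSNAX, beside 4.49% of all genes.

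TSN and TSNAX encode translin and its partner, which form the nuclease C3PO that clears the cut passenger strand during Argonaute loading. TSN had 15.4 TPM in siCDH3 HCC827 and 17.2 in siCTR HCC827, and 11.6 TPM in siCDH3 H1299 against 52.2 in siCTR H1299. The siCTR H1299 library stands apart, and the other 3 lie close together. The log2 ratio was -2.08 in H1299 and -0.14 in HCC827, and -1.93 in H1299 with the length and GC trend removed. TSNAX had 19.6 and 23.6 TPM in siCDH3 and siCTR HCC827, and 10.5 and 19.2 TPM in siCDH3 and siCTR H1299, with log2 ratios of -0.26 and -0.82. TSNAX shares 10.5% of its exonic bases with the read-through gene TSNAX-DISC1, which had at most 0.554 TPM in any library. In the limma fit TSN had -1.11 ± 0.47 (SE, 2 lines) and TSNAX -0.54 ± 0.20, each with an adjusted p of 0.95.

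Downstream of TNRC6A, the deadenylation and decapping genes had a median log2 ratio of -0.0096 in HCC827 and -0.23 in H1299 over 19 genes, and none was past 2-fold. The medians over all filtered genes were 0.030 and -0.11, and 11 and 12 of the 19 lay below them. CNOT2, a core subunit of the CCR4-NOT deadenylase, had 29.9 TPM in siCDH3 HCC827 against 46.9 in siCTR HCC827, and 32.5 TPM in siCDH3 H1299 against 55.4 in siCTR H1299. Its log2 ratios of -0.63 and -0.75 were close to each other, with a limma value of -0.69 ± 0.15 (SE, 2 lines; unadjusted p = 0.0071, adjusted p = 0.93). DCP2, the decapping enzyme, had log2 ratios of 0.17 in HCC827 and 0.79 in H1299. The deadenylase CNOT6L had 11.7 TPM in siCDH3 HCC827 against 5.64 in siCTR HCC827, a log2 ratio of 0.94, and -0.14 in H1299. CNOT9 had 0.48 and -0.34.

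Among Argonaute partners, the helicase gene DDX6, which binds CCR4-NOT, had 36.0 TPM in siCDH3 HCC827 against 27.7 in siCTR HCC827, and 25.9 TPM in siCDH3 H1299 against 50.7 in siCTR H1299. Its log2 ratio was 0.37 in HCC827 and -0.94 in H1299, and the difference between the lines was not tested. AJUBA (-0.56), FMR1 (-0.53) and FXR1 (-0.50) were also below the median of all genes in H1299, and lay at -0.091, 0.053 and -0.12 in HCC827. Of the remaining roles, the Microprocessor cofactors lay between -0.24 and 0.19 in HCC827 and between -0.41 and -0.025 in H1299. The chaperones that load Argonaute lay between -0.22 and 0.26 in HCC827 and between -0.24 and 0.028 in H1299. The small GTPase gene RAN, which powers export with XPO5, had 0.49 in HCC827 and -0.40 in H1299.

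LIN28B, which blocks let-7 processing, was listed at 0 TPM in both HCC827 libraries and had 11.9 TPM in siCDH3 H1299 and 18.5 in siCTR H1299. LIN28A was listed at 0 in all 4 libraries, and the 4 PIWI genes, which serve germ cells, were at most 1.55 TPM. Between the lines, limma called 4 of the 55 tested genes of the list higher in HCC827 (21.5% of all genes were) and 17 lower (41.3% of all genes were). ADAR (0.50), SND1 (0.64), ERI1 (0.60) and AJUBA (0.60) were the 4 higher. The lower ones included PABPC1 (-2.14), which binds poly(A) and GW182 proteins, and the chaperone genes HSP90AB1 (-1.69), PTGES3 (-1.51) and HSP90AA1 (-1.15). LIN28B is also among the 17, and it passed the filter only through H1299, which favoured a difference. These calls are on TPM as deposited, where the median log2 fold change of all genes was -0.31.

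**Figure D5:**
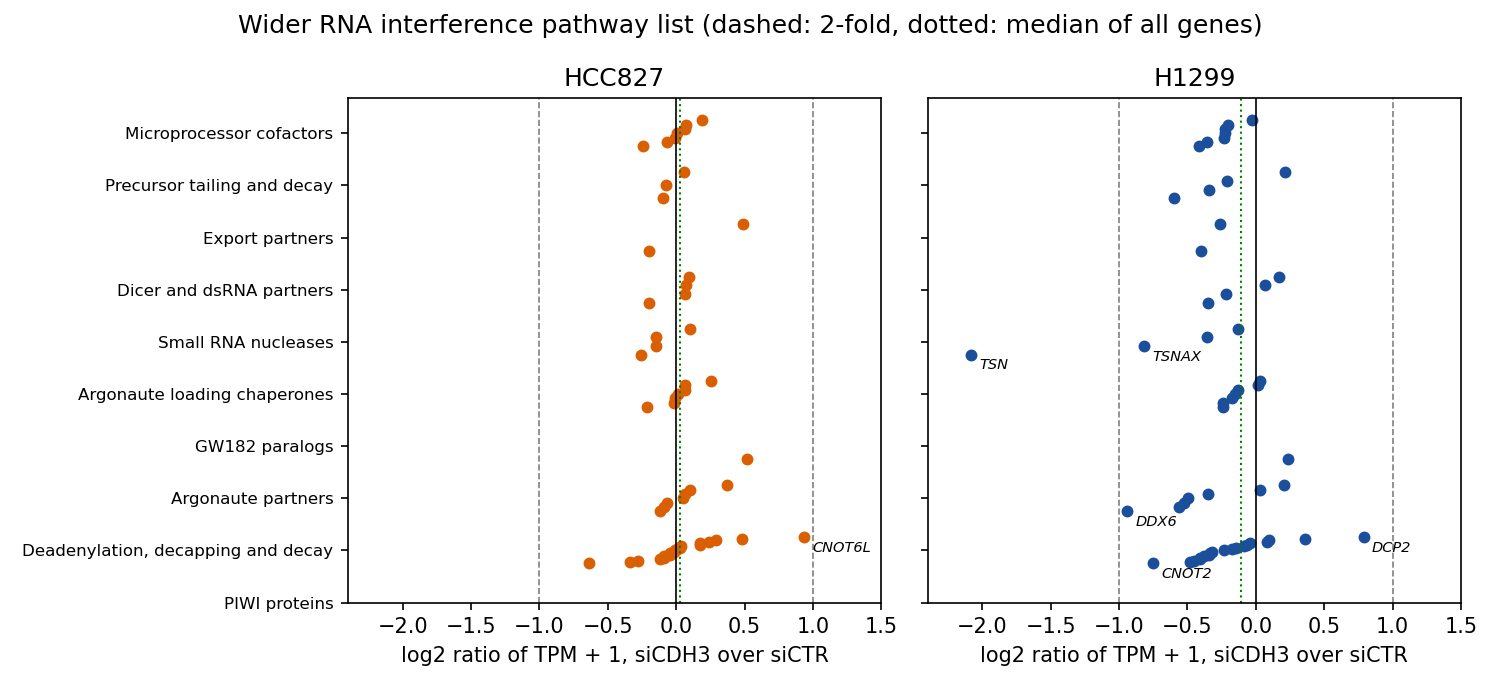
Log2 ratio of TPM + 1, siCDH3 over siCTR, for the genes of the wider list that passed the filter, by role, in HCC827 (left) and H1299 (right). Dashed lines mark 2-fold and dotted lines the median of all filtered genes, and TSN at -2.08 in H1299 is the only point past 2-fold in these 2 panels.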

How the data were processed

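The authors deposited TPM values, 1 column per library, not pooled. Per the submitters' processing notes the genome build was hg19. For the aligner, the counter, the annotation and strand, the entry is: not given in the sources used here. Each column was assigned by the labels, and 0 other columns of values were left aside. TPM fixes the sum of a library, so values are relative and depth is unknown.

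Log2 ratios of TPM + 1 were taken, with a filter of at least 5 TPM in at least 1 library compared and a size rule of 2-fold. A linear model with moderated variance (limma 3.58.1 under R 4.3.3) took all filtered genes on that log2 scale, with terms for line and siRNA and Benjamini-Hochberg adjustment over all of them. The line pairs the libraries, per the labels. The p-values rest on the spread left in these libraries after the line and siRNA terms, moderated over all genes. Nothing says that libraries came from separate cultures, so this is not a spread between cultures. Transcript lengths, GC content, overlaps and shared windows came from GENCODE 29, built on a later assembly, so none of its coordinates is printed. The promoter and microRNA sequences are RefSeq's. The ratio and limma steps were tested on simulated data.

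The 10 genes, the wider list and the rules for naming genes were chosen with earlier results of these data known. Besides the 10 genes, the text names CDH3, up to 4 genes with the largest absolute log2 ratios per role described, genes called by limma, genes near AGO2 in pattern, and genes that overlap a member. TNRC6C, LIN28A, CNOT9 and RAN are named to complete their role. Alternatives covered pseudocounts, filters, scalings, size rules, the block, an intensity trend and left-out libraries.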

Additional observations from a re-analysis of the deposited data

How the results depend on the processing

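Depth is unknown and each group is 1 library, which limits every value, most of all AGO1, AGO3 and AGO4 in HCC827. Causes of the shifts given here were not tested. The additional counts over genes at 5 TPM in all 4 libraries were chosen after seeing the data.

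Within H1299, 102 genes were 2-fold higher and 184 lower with siCDH3. These counts were 47 and 91 with a pseudocount of 5, 228 and 308 with a filter at 1 TPM or no filter, 43 and 108 with a filter at 20 TPM, 373 and 826 at 1.5-fold, and 12 and 26 at 4-fold. With the median set to 0 they were 140 and 134, with quantile normalization 135 and 123, and with nuclear protein-coding TPM 122 and 171. At 1.5-fold, 1 of the 10 genes was lower (0 at 2-fold). Of the 55 genes of the wider list that passed the filter, 1 was higher and 5 were lower at 1.5-fold (0 and 1 at 2-fold). Among all filtered genes, 3.21% were higher and 7.11% lower at 1.5-fold. Within HCC827, the counts were 111 and 92, and 53 and 46 with a pseudocount of 5, 193 and 180 with a filter at 1 TPM or no filter, 50 and 48 with a filter at 20 TPM, 370 and 280 at 1.5-fold, and 15 and 18 at 4-fold. At 1.5-fold, 1 of the 54 wider-list genes that passed was higher and 1 lower, beside 3.35% and 2.54% of filtered genes. The log2 ratio of TNRC6A stayed between -0.38 and -0.25 in HCC827 and between -0.86 and -0.69 in H1299.

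Between the siCTR libraries, 1695 genes were 2-fold higher and 3500 lower (27.8%) in HCC827, with 4 of the 10 genes lower, AGO1 among them. A filter at 1 TPM or no filter gave 2571 higher, and one at 20 TPM gave 904 and 2130. With the median set to 0, 2418 were higher and 2300 lower, and with nuclear protein-coding TPM 2538 and 2163, so the balance turned round; with quantile normalization 2272 and 2458. In all 3 of these, 2 of the 10 genes were lower, AGO1 and TNRC6A, and AGO1 passed the filter only through H1299. With a pseudocount of 5, 1300 genes were higher and 2632 lower, and 2 of the 10 genes were lower, TARBP2 and TNRC6A. The 2300 lower with the median set to 0 and the 2632 are out of 12601 filtered genes. At 1.5-fold 5345 genes (42.4%) and 8 of the 10 were lower, AGO1, AGO3 and AGO4 among them. Between the siCDH3 libraries 1 of the 10 was lower by 2-fold, AGO1, beside 24.2% of filtered genes.

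limma called 2787 genes higher and 5351 lower (41.3%) between the lines, 8 of the 10 among the lower. The 8 include AGO1, AGO3 and AGO4, whose entry through H1299 favoured a difference. With the median set to 0 it called 4046 and 4028 (31.1% lower), and 4 of the 10, AGO1 among them. Nuclear protein-coding TPM gave 4242 and 3301 (26.7% lower), and 5 of the 10, AGO1 and AGO3 among them. DGCR8 was then at 0.0037 and DICER1 at 0.24. Quantile normalization gave 3795 and 4260 (33.1% lower), and 5 of the 9 tested, AGO1 and AGO4 among them. DICER1 was 0.16 with the median set to 0 and 0.085 with quantile normalization. A filter at 20 TPM gave 1613 and 3475 (45.0% lower), and 5 of the 6 tested. AGO2 and TNRC6A are among these 5 and passed that filter only through H1299, which favoured a difference. No filter gave 24 and 27 (0.0464% lower), and 0 of the 10. A fit with a library left out takes its spread from the other line only. The counts of such fits, given next, therefore cannot show which library a difference depends on. They include AGO1 in each fit, and AGO3 in the fits without an H1299 library. The entry of both genes through H1299 favoured a difference. Leaving out each library in turn gave 1683 to 2794 higher, 3100 to 5170 lower, and 2 to 7 of the 10 genes: 3 without siCDH3 HCC827 (24.4% of all genes were lower) and 2 without siCTR HCC827 (23.95%), against 7 without siCDH3 H1299 (39.95%) and 7 without siCTR H1299 (35.6%).

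For the siRNA effect, limma called 1 gene lower, and 0 with nuclear protein-coding TPM, no filter, quantile normalization or no replicate block. Without the block TNRC6A had an SE of 0.74, and between the lines 9 of the 10 genes were called lower, beside 41.8% of all genes. The 9 include AGO1, AGO3 and AGO4, whose entry through H1299 favoured a difference. The siRNA effect of AGO1 was 0.0020 with the median set to 0 and 0.016 with quantile normalization. The adjusted p of TNRC6A lay between 0.87 and 1. Leaving out a library left the blocked siRNA fit without residual degrees of freedom, so it gave no test.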
